A study of Arabidopsis thaliana with 12 samples.

Results

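The GH3 conjugating enzymes and the DAO oxidases are among the enzymes with which Arabidopsis thaliana inactivates auxin, and their transcripts were followed here in rosettes that differ in ascorbate synthesis. The 10 genes were chosen by locus identifier. They comprised 8 auxin-conjugating GH3 genes, namely GH3.1 (AT2G14960), GH3.2 (AT4G37390), GH3.3 (AT2G23170), GH3.4 (AT1G59500), GH3.5 (AT4G27260), GH3.6 (AT5G54510), GH3.9 (AT2G47750) and GH3.17 (AT1G28130), and the 2 oxidase genes DAO1 (AT1G14130) and DAO2 (AT1G14120). All 10 were among the 33618 gene identifiers of the deposited table, and 6 of them passed the filter on low values that left 17290 genes for testing.

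RNA came from whole rosettes of 4 genotypes, with 3 libraries each and 12 in all. One group was the wild type (WT) and another the mutant vtc2-4, called vtc2 below. The mutant vtc4-4 is called vtc4. The group called OE was a single line, vtc2/OE-VTC2 L15, labelled as overexpressing VTC2 in a vtc2 background. The VTC2 product is GDP-L-galactose phosphorylase and the VTC4 product hydrolyses L-galactose phosphate, both in the main plant route to ascorbate. The untreated plants were 4 weeks old and were harvested 30 min into an 8 h day, the night being 16 h long, at 22 °C under a light intensity of 300 μmol photons per square metre per second. Each library was a pool of 8 rosettes. The promoter of the OE construct and the ascorbate contents of these plants are not given in the labels.

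Auxin acts through its concentration, and plants lower the active pool by conjugation and by oxidation. GH3 enzymes of the auxin-conjugating group join indole-3-acetic acid (IAA) to amino acids such as aspartate and glutamate, and several of their genes are themselves induced by auxin, so that they form a feedback loop. DAO enzymes are iron- and oxoglutarate-dependent dioxygenases that oxidise IAA to the inactive 2-oxindole-3-acetic acid. Amidohydrolases release IAA again from some conjugates.

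The values are FPKM, fragment numbers scaled to transcript length and to library size, so levels can be set beside each other between genes. Differences are given on the log2(FPKM + 1) scale, on which changes of genes with low FPKM appear too small, and were called at a limma adjusted p below 0.05 over all 17290 genes. Read depth is unknown, because FPKM values carry no read totals. Between 16591 and 16962 genes per library reached 1 FPKM. The leaf genes CA1 (carbonic anhydrase) and GLDP1 (glycine decarboxylase) stood at 2774 ± 349 and 591 ± 89.6 FPKM in WT (SD, n = 3), and neither was called in any comparison. RBCS1A and LHCB1.3, which leaves also express strongly, were listed at 0 in all 12 libraries, so that a listed 0 in this table can be a failed estimate. VTC2 averaged 819 ± 77.4 FPKM in WT, 17.2 ± 2.79 in vtc2, 783 ± 65.1 in vtc4 and 383 ± 24.6 in OE. VTC4 averaged 28.3 ± 2.67 FPKM in WT and 0.373 ± 0.0837 in vtc4. VTC2 in the libraries labelled OE was thus far above its vtc2 background and below WT (log2 difference from WT -1.09, SE 0.11, limma adjusted p = 0.00147), and directions that use these libraries are those of the libraries labelled OE.

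The promoters of GH3.3, GH3.5 and GH3.6 are shown because these were the 3 genes for which no vtc2 library overlapped a WT library. Each window runs from 250 bases before to 50 bases after the annotated start of the gene and was read from the RefSeq TAIR10.1 genome, 5′ to 3′ on the strand of the gene. Capitals mark matches on either strand to the auxin response element TGTCTC, its variant TGTCGG, the TGA factor element TGACG or the G-box CACGTG. The GH3.3 window lies on the minus strand (chr2:9866513-9866812), GH3.5 on the plus strand (chr4:13653329-13653628) and GH3.6 on the minus strand (chr5:22133639-22133938).
GH3.3: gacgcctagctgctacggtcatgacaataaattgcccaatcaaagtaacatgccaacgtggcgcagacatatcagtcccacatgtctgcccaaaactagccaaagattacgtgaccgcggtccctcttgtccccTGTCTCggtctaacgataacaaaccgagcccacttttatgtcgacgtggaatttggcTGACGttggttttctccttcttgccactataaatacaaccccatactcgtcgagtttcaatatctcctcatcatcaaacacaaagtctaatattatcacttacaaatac
GH3.5: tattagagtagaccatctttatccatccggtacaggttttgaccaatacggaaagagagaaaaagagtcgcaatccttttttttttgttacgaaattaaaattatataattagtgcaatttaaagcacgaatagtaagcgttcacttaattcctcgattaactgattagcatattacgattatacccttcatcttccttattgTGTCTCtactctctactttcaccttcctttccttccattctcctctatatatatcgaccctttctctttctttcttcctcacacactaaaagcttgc
GH3.6: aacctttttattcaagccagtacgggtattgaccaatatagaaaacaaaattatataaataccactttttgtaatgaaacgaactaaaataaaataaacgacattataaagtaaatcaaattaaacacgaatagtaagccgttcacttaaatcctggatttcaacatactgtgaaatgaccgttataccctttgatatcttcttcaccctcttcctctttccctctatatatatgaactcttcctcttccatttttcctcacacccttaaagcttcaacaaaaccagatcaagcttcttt

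GH3.3 held TGTCTC with its first base 116 bases before the start and TGACG 59 bases before it. GH3.5 held TGTCTC 47 bases before the start, and the GH3.6 window held none of the 4 motifs. Among the 10 members TGTCTC was found in 4 windows (GH3.1, GH3.2, GH3.3 and GH3.5), compared with 14.2% of the same windows at 27443 nuclear protein-coding genes. TGACG was found in 4 members (GH3.1, GH3.2, GH3.3 and GH3.4) and in 23.1% of all windows. CACGTG was found in 2 members (GH3.2 and DAO2) and in 7.68% of all windows, and TGTCGG in 0 members and 5.12% of all windows. A match of letters is a description of the sequence and not a binding site. The 3 genes have 3 exons each, and their transcribed regions are chr2:9863855-9866562 for GH3.3, chr4:13653579-13656285 for GH3.5 and chr5:22130964-22133688 for GH3.6. None of the 75-base windows of the 10 transcripts occurred in an annotated transcript of another locus. GH3.9 shares 509 bases with a long noncoding RNA gene on the opposite strand, AT2G09955, and the strand setting of the quantification was not given, so its values may hold reads of that gene.

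The order of levels was dominated by a pair of GH3 genes. Over the 12 libraries GH3.6 averaged 9.05 ± 1.83 FPKM (SD, n = 12) and GH3.5 averaged 6.82 ± 1.39. GH3.6 encodes DFL1 and GH3.5 encodes WES1, an enzyme that acts on salicylic acid as well as on IAA. GH3.6 exceeded GH3.5 in 12 of 12 libraries, by a ratio of 1.16 to 1.75. DAO1, the main IAA oxidase of vegetative tissue, followed at 4.202 ± 0.537 FPKM and lay below GH3.5 in 12 of 12 libraries, although in WT replicate 2 the 2 genes differed by a ratio of 1.02. GH3.9, whose loss alters root growth and auxin sensitivity, averaged 2.96 ± 0.446 FPKM. GH3.17, also known as VAS2 and selective for glutamate, averaged 2.81 ± 0.385. The order of GH3.9 and GH3.17 was not separated by their spread, since GH3.9 was the higher in 8 of 12 libraries. GH3.3 averaged 1.75 ± 0.679 FPKM, the lowest of the 6 tested genes, and was the most variable of them. Its range between lowest and highest library was 4.17-fold, against 1.43-fold for DAO1. With read depth unknown, the part of read sampling in that range was not tested.

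**Figure D1:**
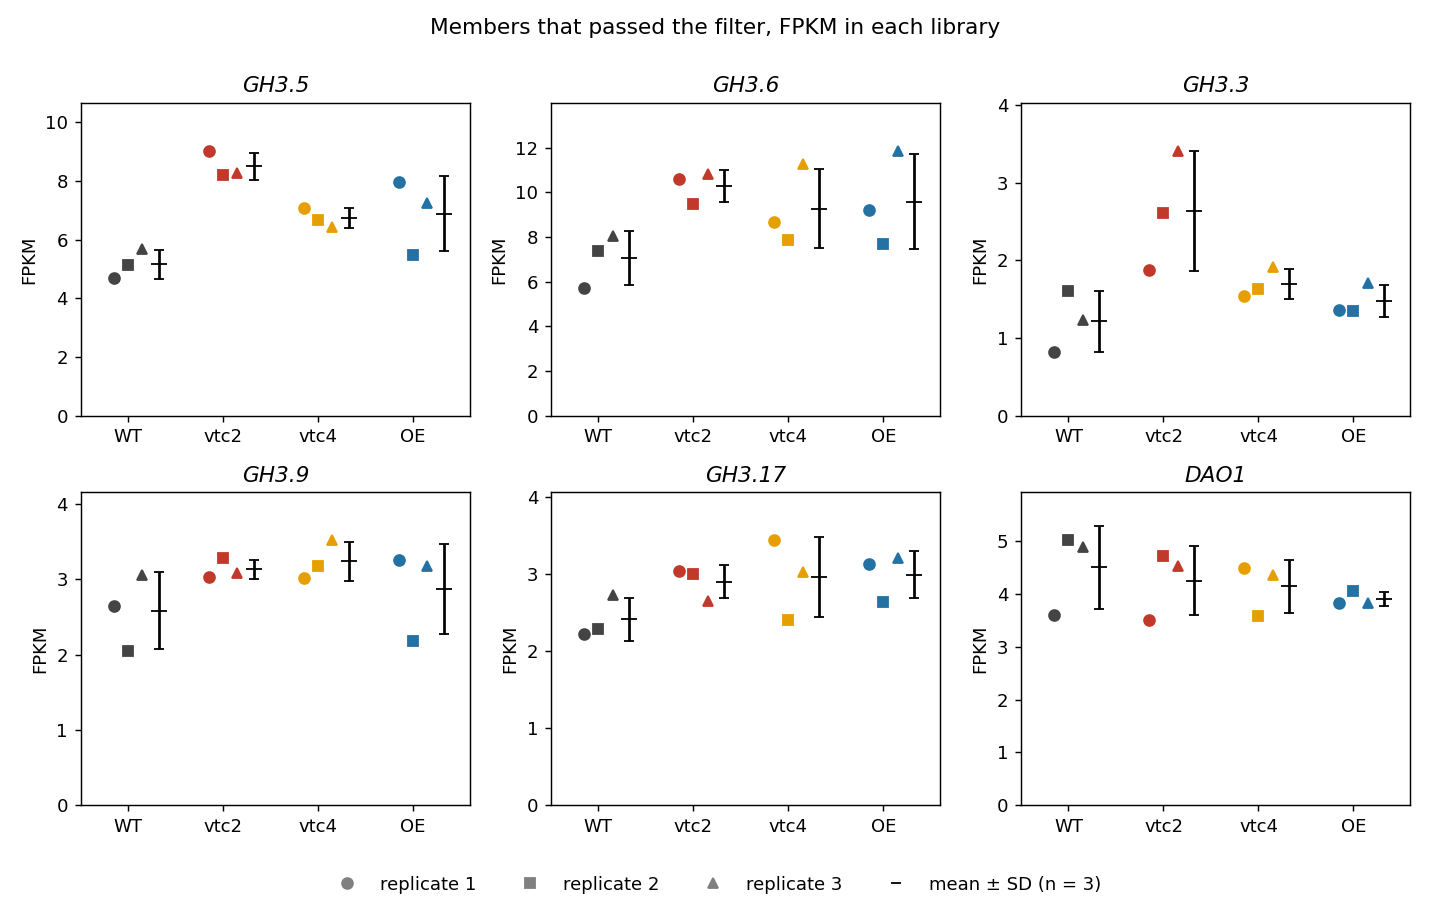
FPKM (vertical axes, from 0) of the 6 members that passed the filter, in each library of the 4 genotypes, with marker shape for the replicate and black bars for mean ± SD (n = 3). GH3.3, GH3.5 and GH3.6 are lowest on average in WT and highest in vtc2, and DAO1 overlaps in all 4 genotypes.

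Of the members, GH3.5 had the smallest adjusted p in vtc2 against WT. It stood at 4.68, 5.12 and 5.68 FPKM in the WT libraries, 9.03, 8.20 and 8.27 in vtc2, 7.09, 6.69 and 6.43 in vtc4, and 7.97, 5.46 and 7.24 in OE. All vtc2 libraries were above every library of the other 3 genotypes, all vtc4 libraries were above WT, and OE replicate 2 alone fell within the WT range. GH3.5 rose 1.65-fold in mean FPKM in vtc2 against WT, from 5.16 ± 0.502 to 8.50 ± 0.462 (log2 difference 0.63, SE 0.11, limma adjusted p = 0.0156). The call ended without vtc2 replicate 3 (limma adjusted p = 0.0593) and when only the 6 vtc2 and WT libraries were fitted (0.0506).

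GH3.3 encodes an auxin-inducible enzyme that forms IAA-aspartate. It stood at 0.819, 1.60 and 1.23 FPKM in WT, 1.87, 2.62 and 3.41 in vtc2, 1.54, 1.64 and 1.91 in vtc4, and 1.36, 1.35 and 1.71 in OE. The vtc2 libraries lay above WT and OE without overlap, while vtc2 replicate 1 fell below vtc4 replicate 3. GH3.3 rose 2.16-fold in mean FPKM in vtc2 against WT, from 1.22 ± 0.391 to 2.63 ± 0.770 (log2 difference 0.71, SE 0.16, limma adjusted p = 0.0414). This call was near the threshold and changed with single libraries. It held without WT replicate 2, vtc2 replicate 1, OE replicate 2 or OE replicate 3. It ended without WT replicates 1 or 3, vtc2 replicates 2 or 3, OE replicate 1 or any 1 of the vtc4 replicates (limma adjusted p up to 0.157). The vtc4 and OE libraries are not in the 2 means compared and enter the fit through the shared estimate of spread. The call also ended without the filter on low values (0.0663) and with only the groups compared (0.129).

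GH3.6 stood at 5.70, 7.39 and 8.06 FPKM in WT, 10.6, 9.48 and 10.8 in vtc2, 8.68, 7.89 and 11.3 in vtc4, and 9.23, 7.68 and 11.9 in OE. The vtc2 libraries did not overlap WT, but they overlapped vtc4 and OE. Its difference between vtc2 and WT was not called (7.05 ± 1.21 to 10.3 ± 0.711 FPKM, log2 difference 0.50, SE 0.16, limma adjusted p = 0.109). The 95% interval of that difference, not adjusted for the number of genes, ran from 0.16 to 0.84.

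GH3.9 stood at 2.65, 2.04 and 3.06 FPKM in WT, 3.04, 3.28 and 3.09 in vtc2, 3.01, 3.184 and 3.52 in vtc4, and 3.26, 2.18 and 3.184 in OE. GH3.17 stood at 2.22, 2.28 and 2.73 FPKM in WT, 3.04, 3.00 and 2.65 in vtc2, 3.43, 2.40 and 3.02 in vtc4, and 3.123, 2.63 and 3.21 in OE. For both genes every genotype overlapped WT. Their differences between vtc2 and WT were 0.22 (SE 0.13) for GH3.9 and 0.19 (SE 0.11) for GH3.17, with limma adjusted p of 0.389 and 0.365.

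DAO1 (chromosome 1, TAIR10.1 positions 4835724 to 4837771, minus strand) gave no call. It stood at 3.602, 5.02 and 4.89 FPKM in WT, 3.51, 4.72 and 4.53 in vtc2, 4.50, 3.58 and 4.36 in vtc4, and 3.84, 4.05 and 3.82 in OE. The 4 genotypes overlapped, and the WT libraries alone covered most of the range. Against WT the log2 difference was -0.06 in vtc2 (95% interval -0.33 to 0.20), -0.09 in vtc4 (-0.36 to 0.18) and -0.16 in OE (-0.43 to 0.11), with limma adjusted p of 0.815, 1.00 and 0.930.

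The 4 members below the filter were GH3.1, GH3.2, GH3.4 and DAO2, which reached 1 FPKM in 0 of 12 libraries and were not tested. GH3.2, known as YDK1, stood at 0.189, 0.369 and 0.228 FPKM in WT, 0.288, 0.480 and 0.624 in vtc2, 0.540, 0.446 and 0.286 in vtc4, and 0.310, 0.243 and 0.314 in OE. Its genotypes overlapped. DAO2, the close relative of DAO1, ranged from 0.165 to 0.775 FPKM with a median of 0.465, and both extremes were WT libraries. GH3.1 was above 0 in 4 libraries, vtc4 replicate 1 (0.0193 FPKM) and the OE libraries (0.0200, 0.0196 and 0.0380). GH3.4 was listed at 0 in all 12.

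**Figure D2:**
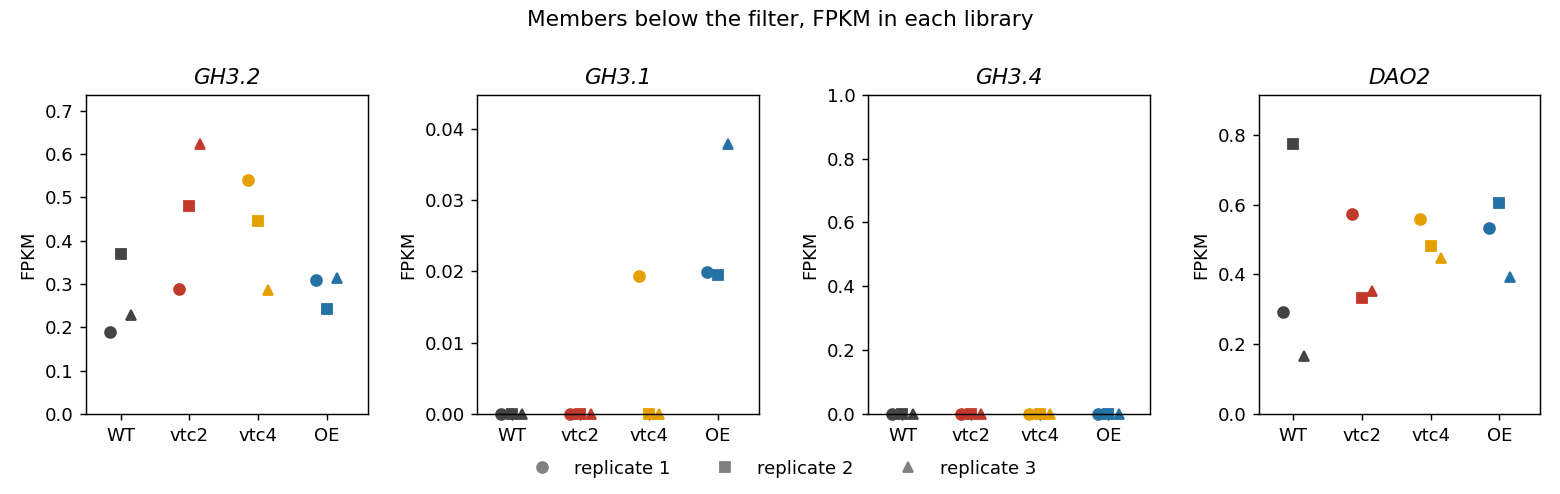
FPKM (vertical axes, from 0, with a different scale in each panel) of the 4 members below the filter, one marker per library. GH3.2 and DAO2 stay under 0.78 FPKM with overlapping genotypes, GH3.1 does not exceed 0.0380, and GH3.4 lies at 0 throughout.

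The series set out to relate ascorbate to auxin, and the loss of VTC2 is the first comparison for it. In vtc2 against WT, 2 members were called higher (GH3.3 and GH3.5) and 0 lower, compared with 0.798% of all tested genes called higher, 2.23% called lower and 3.02% called in either direction. The median log2 difference was 0.36 over the 6 tested members and 0.00 over all genes. Values of vtc2 lay above WT without overlap for 3 of the 6 (GH3.3, GH3.5 and GH3.6), compared with 10.4% of all tested genes in that direction, 12.6% in the opposite one and 22.9% in either.

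In vtc4 against WT, 0 members were called in either direction, compared with 0.0347% of all tested genes in either direction, 0.0116% higher and 0.0231% lower. At an unadjusted limma p below 0.05, GH3.5 (0.33, SE 0.11, limma adjusted p = 0.868) and GH3.6 (0.35, SE 0.16, 1.00) made 2 of the 6 members, compared with 841 of 17290 genes. GH3.3 differed by 0.29 (SE 0.16), GH3.9 by 0.25 (SE 0.13) and GH3.17 by 0.21 (SE 0.11). GH3.5 was the 1 member without overlap (5.14% of all tested genes were higher without overlap, 5.23% lower and 10.4% in either direction).

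In OE against WT, 0 members were called, compared with 0.0174% of all tested genes in either direction, 0.00578% higher and 0.0116% lower. Groups did not overlap for 0 members, compared with 5.42% of all tested genes higher, 5.49% lower and 10.9% in either direction. GH3.5 differed by 0.35 (SE 0.11, limma adjusted p = 0.659) and GH3.6 by 0.39 (SE 0.16, 0.776), the 2 members with an unadjusted limma p below 0.05, as had 1044 of all genes. GH3.3 differed by 0.17 (SE 0.16), GH3.17 by 0.23 (SE 0.11) and GH3.9 by 0.11 (SE 0.13). All 5 tested GH3 genes therefore had their lowest mean in WT. The share of all tested genes with their lowest mean in WT was not counted. Singly, 50.4% of all tested genes had a positive log2 difference from WT in vtc2, 46.0% in vtc4 and 46.5% in OE. The comparisons of vtc2, vtc4 and OE with WT share the same 3 WT libraries and do not count as separate evidence.

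In OE against vtc2, 0 members were called, compared with 5.14% of all tested genes in either direction, 2.94% higher and 2.2% lower. The log2 difference was -0.54 for GH3.3 (SE 0.16, limma adjusted p = 0.0774) and -0.28 for GH3.5 (SE 0.11, 0.153). Both lacked overlap, compared with 13% of all tested genes lower, 14.3% higher and 27.2% in either direction. GH3.6 (-0.11, SE 0.16), GH3.9 (-0.11, SE 0.13), GH3.17 (0.03, SE 0.11) and DAO1 (-0.09, SE 0.12) had 95% intervals that included 0. The GH3.3 difference passed the threshold without vtc2 replicate 1 (limma adjusted p = 0.0248).

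In vtc2 against vtc4, 0 members were called (1.36% of all tested genes in either direction, 0.463% higher and 0.902% lower), with GH3.3 at 0.41 (SE 0.16, limma adjusted p = 0.184) and GH3.5 at 0.30 (SE 0.11, 0.163). The vtc2 libraries lay above vtc4 without overlap for GH3.5 (13.9% of all tested genes were higher without overlap, 13.7% lower and 27.6% in either direction). In OE against vtc4, 0 members were called (0.0405% of all tested genes in either direction, 0.0231% higher and 0.0174% lower), 0 were without overlap (11.3% in either direction, 5.66% higher and 5.61% lower), and the log2 differences of the 6 tested members ran from -0.14 for GH3.9 to 0.04 for GH3.6, with 95% intervals that all included 0.

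**Figure D3:**
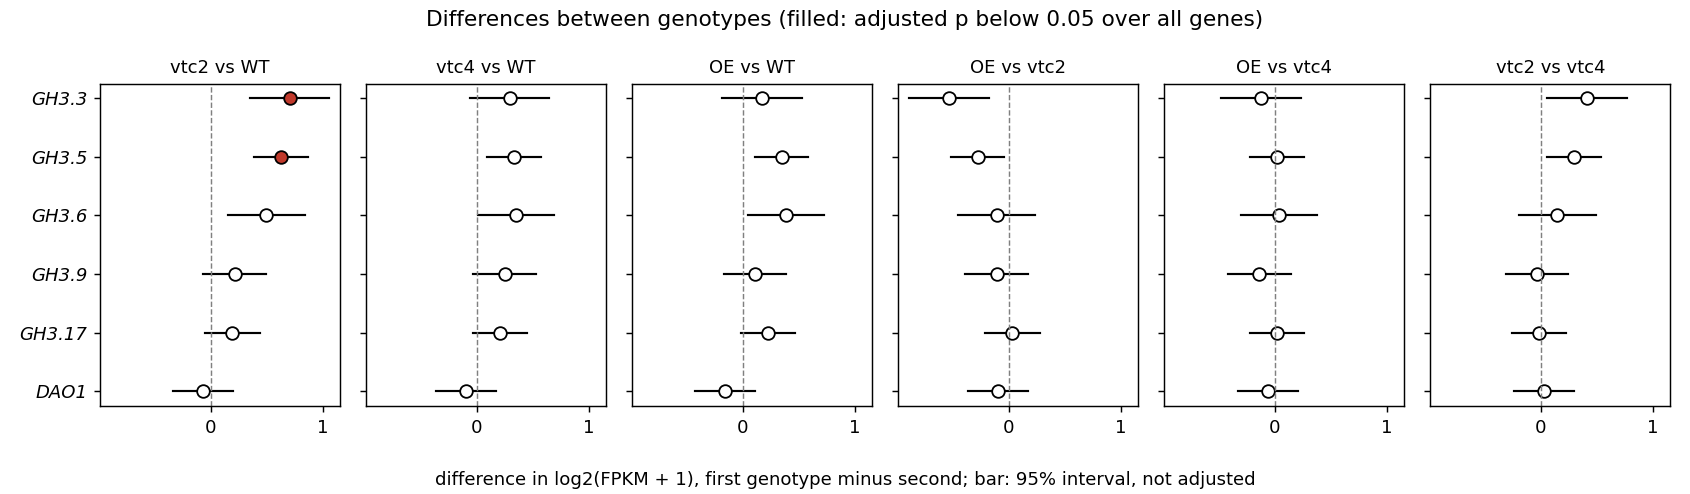
Difference in log2(FPKM + 1) (horizontal axes, first genotype minus second) of the 6 tested members in the 6 comparisons, with unadjusted 95% intervals, and filled points where the limma adjusted p over all genes was below 0.05. The filled points are GH3.3 (0.71) and GH3.5 (0.63) in vtc2 against WT.

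Summed over the 8 GH3 members, WT libraries held 16.3, 18.8 and 21.0 FPKM and vtc2 libraries 27.9, 27.1 and 28.8. The vtc4 libraries held 24.3, 22.2 and 26.4, and the OE libraries 25.3, 19.6 and 27.6. The vtc2 sums were above all WT and vtc4 sums but overlapped OE, since OE replicate 3 (27.6) exceeded vtc2 replicate 2 (27.1). OE replicate 2 was the 1 library outside WT that fell within the WT range. GH3.5 and GH3.6 together supplied 63.8% to 70.5% of the sum in every library, and GH3.3 supplied 5.03% to 11.8%. The ratio of the GH3 sum to DAO1 was 4.18 ± 0.396 in WT, 6.68 ± 1.13 in vtc2, 5.90 ± 0.433 in vtc4 and 6.21 ± 1.23 in OE (SD, n = 3). WT replicate 1, with the lowest DAO1 of WT, had the highest of the WT ratios at 4.51, and OE replicate 2 had the lowest outside WT at 4.83. These sums and ratios were formed with the single values known and were not tested.

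**Figure D4:**
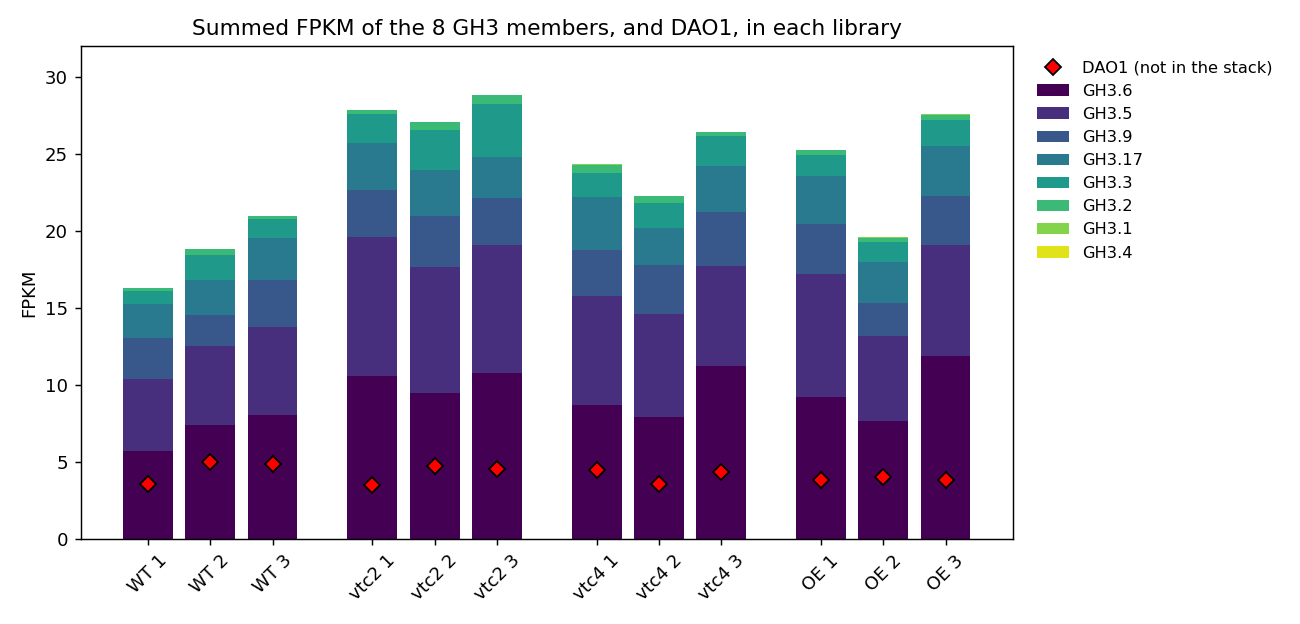
Stacked FPKM of the 8 GH3 members in each of the 12 libraries (vertical axis in FPKM, from 0), with DAO1 as red diamonds that are not part of the stack. The stacks reach 16.3 to 21.0 FPKM in WT and 27.1 to 28.8 in vtc2, while DAO1 stays between 3.51 and 5.02 in all libraries.

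GH3.5 takes salicylic acid as a substrate, so the members were set beside 12 salicylate markers. In vtc2 against WT, 3 of the 12 were called higher (PR5, a pathogenesis-related protein, AED1, and the salicylate hydroxylase gene DMR6), and the other 9 had positive differences that were not called. Each of the 3 calls ended without WT replicates 1 or 3 or vtc2 replicates 2 or 3 and with only the groups compared. DMR6 was also lost without any 1 vtc4 library and AED1 without vtc4 replicates 1 or 2 (limma adjusted p up to 0.146 over all these fits). Of the 12 markers, 4 were called lower in OE against vtc2, namely PR5 (-1.82, SE 0.33, limma adjusted p = 0.0141), AED1 (-1.55, SE 0.28, 0.0135), DMR6 (-1.25, SE 0.22, 0.0128) and ICS1, the isochorismate synthase of salicylate synthesis (-1.54, SE 0.21, 0.00404). The ICS1 call held in 12 of 12 fits with 1 library left out, the other 3 ended without vtc2 replicates 2 or 3 or OE replicate 1, and all 4 ended with only the groups compared (limma adjusted p of 0.0561 to 0.0795). In vtc2 against vtc4, PR5 (1.52, SE 0.33, limma adjusted p = 0.0488) and ICS1 (1.014, SE 0.21, 0.0433) were called higher, and of the 12 fits with 1 library left out these calls held in 3, those without WT replicate 3, vtc2 replicate 1 or OE replicate 2. Of the 11 alternatives in processing, the PR5 and ICS1 calls in vtc2 against vtc4 each held in 7. In vtc2 against WT, PR5 held in 8 of the 11, and AED1 and DMR6 in 7 each. Over all tested genes, 0.798% were called higher in vtc2 against WT, 2.2% lower in OE against vtc2 and 0.463% higher in vtc2 against vtc4. By the mean log2(FPKM + 1) of the 12 markers relative to WT, the vtc2 libraries stood at 0.33, 1.06 and 1.44, the WT libraries at 0.02, 0.20 and -0.22, vtc4 at 0.07, -0.08 and 0.03, and OE at -0.39, 0.65 and -0.52. In the 3 vtc2 libraries GH3.3 was ordered like the markers, from 1.87 to 2.62 and 3.41 FPKM. GH3.5 was not, since it was highest (9.03 FPKM) in vtc2 replicate 1, where the markers were lowest. In OE replicate 2, where the markers were at 0.65, GH3.3 (1.35), GH3.5 (5.46) and GH3.6 (7.68 FPKM) were the lowest of the OE libraries. In vtc4 the mean of the 12 markers lay within the WT range while GH3.5 lay above it. ICS1 was the 1 marker without overlap between vtc4 and WT. It was lower in vtc4 (7.38 to 8.21 FPKM) than in WT (8.65 to 9.26), compared with 5.23% of all tested genes lower without overlap. The part of salicylate in the GH3 values was not tested.

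**Figure D5:**
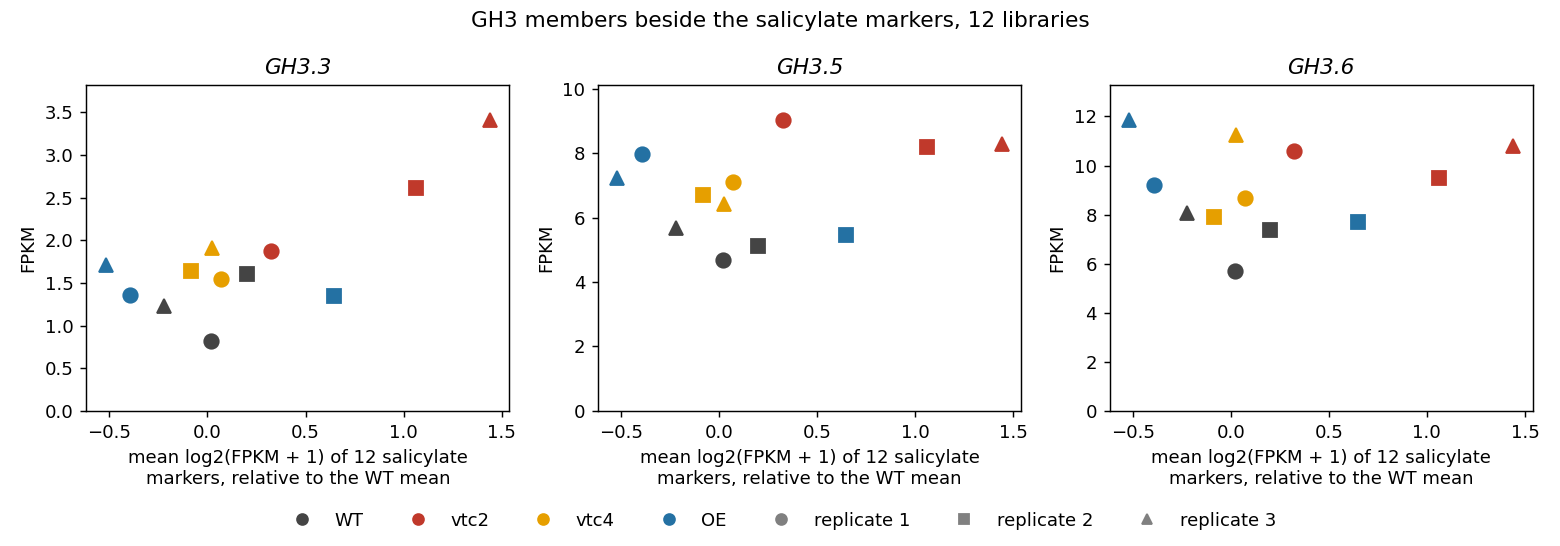
FPKM of GH3.3, GH3.5 and GH3.6 (vertical axes, from 0) against the mean log2(FPKM + 1) of 12 salicylate markers relative to the WT mean (horizontal axes), one marker per library, with colour for genotype and shape for replicate. The vtc2 libraries at 1.06 and 1.44 hold the highest GH3.3 values, and GH3.5 is highest in the vtc2 library at 0.33.

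Markers of leaf, root and floral tissue were also compared, and of these only PYK10 was called. PYK10, a myrosinase of root endoplasmic reticulum bodies, averaged 14.0 ± 3.191 FPKM in WT, 27.8 ± 3.26 in vtc2, 25.6 ± 4.23 in vtc4 and 20.1 ± 1.34 in OE (vtc2 against WT 0.95, SE 0.15, limma adjusted p = 0.0095). The PYK10 call held in 12 of 12 fits with 1 library left out and ended with only the groups compared (0.0621). PYK10 was not called in vtc4 against WT (0.83, SE 0.15, limma adjusted p = 0.139) or OE against WT (0.51, SE 0.15, 0.605). The other 5 root markers summed to at most 0.549 FPKM in any library, and EXPA7 and RHD6 were listed at 0 in all 12. CA1 and GLDP1, the leaf markers above 0, together summed to 3032 to 3855 FPKM in WT, 2496 to 2876 in vtc2, 3243 to 3492 in vtc4 and 3164 to 3558 in OE, so that vtc2 was lowest without overlap. Most of this sum was CA1, which averaged 2226 ± 180 FPKM in vtc2. GLDP1 alone overlapped between vtc2 (478 to 544 FPKM) and WT (530 to 694). In vtc2 against WT, 12.6% of all tested genes were lower without overlap. CA1 differed by -0.31 between vtc2 and WT (SE 0.09, limma adjusted p = 0.0923) and by -0.33 between vtc2 and vtc4 (SE 0.09, 0.0866), and GLDP1 by -0.20 between vtc2 and WT (SE 0.10, 0.271). None of the 5 floral markers passed the filter on low values. Together they summed to 0.674 to 0.805 FPKM in WT, 0.292 to 0.557 in vtc2, 0.351 to 0.623 in vtc4 and 0.435 to 0.906 in OE. The part of tissue makeup in the GH3 values was not tested. Since RNA came from whole rosettes, a change in the number of cells that express a gene and a change in its RNA per cell cannot be told apart.

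Other genes of auxin metabolism and auxin response, and the other GH3 genes, were followed in 6 lists of 49 further genes, of which 30 were tested. In vtc2 against WT, 0 of these 30 rose and 1 fell, a share near the 3.02% called over all tested genes. In OE against vtc2, 3 rose and 1 fell (5.14% of all tested genes were called), and in vtc2 against vtc4, 0 were higher and 1 was lower (1.36%). In vtc4 against WT, OE against WT and OE against vtc4, 0 of the 30 were called in either direction. In auxin synthesis, 3 of 12 genes were tested. TAR2, a tryptophan aminotransferase, fell in vtc2 against WT (5.34 ± 0.572 to 3.28 ± 0.532 FPKM, log2 difference -0.57, SE 0.10, limma adjusted p = 0.016) and was lower in vtc2 than in vtc4 (-0.52, SE 0.10, 0.0348, not called without vtc2 replicates 2 or 3 or any 1 vtc4 library). TAR2 rose in OE against vtc2 (0.39, SE 0.10, 0.0468), as did its relative TAA1 (5.00 ± 0.398 to 7.39 ± 1.43 FPKM, 0.47, SE 0.11, 0.0326). In vtc2 against WT the TAR2 call ended without WT replicates 1 or 3 or vtc2 replicates 2 or 3 (limma adjusted p up to 0.071). Its call in OE against vtc2 was kept in 2 of the 12 fits with 1 library left out, those without WT replicate 2 or vtc2 replicate 1. The TAA1 call ended without OE replicates 1 or 3 or any 1 vtc2 library (limma adjusted p up to 0.129).

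Of 8 auxin-inducible Aux/IAA genes, which encode repressors of auxin responses, 7 were tested. None was called in vtc2 against WT by limma, although 4 had an unadjusted p below 0.05, as had 3411 of 17290 genes. The 7 differences were negative with a median of -0.32, and ran from -0.59 for IAA6 (SE 0.15) to -0.05 for IAA19 (SE 0.11), whose interval included 0. IAA2 rose in OE against vtc2 (93.4 ± 15.7 to 126 ± 4.54 FPKM, 0.44, SE 0.11, limma adjusted p = 0.0352), and the call ended without OE replicates 1, 2 or 3 or vtc2 replicate 2.

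Among 11 other GH3 genes, which act on other acyl acids or are little studied, 5 were tested. GH3.12, known as PBS3 and required for salicylic acid synthesis, was lower in OE than in vtc2 (16.4 ± 8.15 to 5.36 ± 3.69 FPKM, -1.48, SE 0.39, limma adjusted p = 0.0486), with overlap between the groups. Of the 12 fits with 1 library left out, that call was kept in 2, those without vtc2 replicate 1 or OE replicate 2. With only the groups compared, none of the calls of TAR2, TAA1, IAA2 and GH3.12 held (limma adjusted p of 0.0731 to 0.137). Of the 11 alternatives in processing, the GH3.12 call held in 5, that of IAA2 in 7 and that of TAA1 in 9. TAR2 was tested in 10 of them. Its call held in 9 for vtc2 against WT, 8 for vtc2 against vtc4 and 6 for OE against vtc2. Against WT, GH3.12 was 1.31 higher in vtc2 (SE 0.39, limma adjusted p = 0.0916).

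No gene was called in the other 3 lists in any of the 6 comparisons. Of the 7 amidohydrolases 6 were tested, and the smallest p belonged to ILL3 (OE against vtc2 -0.34, SE 0.09, limma adjusted p = 0.0527) and ILL6 (vtc2 against vtc4 -0.15, SE 0.07, 0.232). Of 6 genes of auxin glucosylation and methylation 4 were tested. UGT75D1 differed by -0.17 (SE 0.05, limma adjusted p = 0.638) in OE against WT, and UGT74D1, which glucosylates the oxidation product of IAA, by -0.18 (SE 0.06, 0.102) in vtc2 against WT. Of 5 auxin response factors, which bind auxin response elements, 5 were tested and the smallest p were those of ARF7 (OE against vtc2 -0.14, SE 0.08, 0.321) and ARF17 (vtc2 against vtc4 0.12, SE 0.09, 0.479).

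Likeness of pattern was measured as Pearson's r of log2(FPKM + 1) over the 12 libraries, which share genotypes and scaling, among 17289 other genes. Between pairs of the 5 tested GH3 genes r ran from 0.26 to 0.77, with GH3.5 and GH3.6 the most alike. DAO1 had r of -0.18 to 0.32 with the GH3 genes. After each genotype's mean was removed, r ran from -0.08 to 0.63 between the GH3 pairs, with GH3.5 and GH3.9 the most alike, and was 0.00 for GH3.3 with GH3.5 and 0.50 for GH3.5 with GH3.6. DAO1 then had r of -0.11 to 0.71 with the GH3 genes, the highest being with GH3.3. The genes closest to GH3.3 were AT1G71110 (r 0.92, Spearman rho 0.85), AT5G53110 (0.92 and 0.76) and ASP2, an aspartate aminotransferase (0.91 and 0.84). Closest to GH3.5 were the transporter gene ABCG21 (0.86 and 0.81), the epidermal homeobox gene GL2 (0.86 and 0.73) and the growth-regulating factor gene GRF3 (0.85 and 0.74). For GH3.17 they were MYB17 (0.92 and 0.90), AT5G46640 (0.87 and 0.90) and the villin gene VLN1 (0.87 and 0.87). For DAO1 they were AT5G52547 (0.85 and 0.79), AT1G22900 (0.83 and 0.84) and AT3G14430 (0.83 and 0.87). These are the highest of many values and carry no test. Without the 2 libraries farthest from the member's median, the r of these 12 genes ranged from 0.70 for GL2 to 0.92 for AT1G71110.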

How the data were processed

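The authors deposited 1 table of FPKM values with 1 column for each of the 12 libraries. Per the submitters' processing notes, Trimmomatic 0.36, HISAT2 2.1.0, Cufflinks 2.2.1 and Cuffdiff were used with genome build TAIR10. The annotation, strand setting and normalization option are not given in the sources used here. Per the labels' protocols, a strand-specific mRNA kit and paired reads of 75 bases were used. Depth is unknown, so no counting intervals are given.

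Genes with at least 1 FPKM in at least 3 of 12 libraries were kept. The log2(FPKM + 1) values entered limma (version 3.58.1, R version 4.3.3) with genotype as the only factor, all libraries in 1 fit, a mean-variance trend, two-sided tests and Benjamini-Hochberg adjustment over all tested genes of a comparison. Of the 23 alternatives, 12 left out 1 library each and 11 changed the processing, such as the filter, the scaling or the groups fitted.

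The members and lists were chosen with earlier results of these data known. Named genes were all members, the called genes of the other lists or else the 2 with the smallest p, and the 3 genes most like each called member, DAO1 and GH3.17. The motifs were chosen after the values were seen. Names, positions and sequences came from RefSeq TAIR10.1, which matched 32217 of 33618 identifiers and 10 of 10 members. The table itself holds no coordinates.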

Additional observations from a re-analysis of the deposited data

How the results depend on the processing

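In vtc2 against WT, 2 members were called. The number was 1 without the filter on low values, 1 with a mean FPKM of at least 5 (GH3.3 was then not tested), 0 with only the groups compared, and 0 to 2 with 1 library left out. In OE against vtc2, where 0 were called, it was 0 to 1 with 1 library left out. In the other 4 comparisons it was 0 under all 23 alternatives. Same-numbered libraries of different genotypes had correlations of their deviations from -0.17 to 0.20, over 0.1 in 6 of 18 pairs. For libraries of different number these correlations ran from -0.35 to 0.32, over 0.1 in 9 of 36 pairs. Whether a shared number marks a shared batch was not tested, and the main fit left the number out. With the number as a replicate block, 3 members were called in vtc2 against WT (GH3.6 at a limma adjusted p of 0.0406) and 1 in OE against vtc2 (GH3.3, 0.0434).

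The number of all genes called in vtc2 against WT was 523, and 77 to 726 with 1 library left out. It was 13 with only the groups compared. In OE against vtc2 it was 888, and 124 to 1302 with 1 library left out, and in vtc2 against vtc4 236, and 7 to 721. The lowest values over the remaining alternatives were 93 and 13. In vtc4 against WT it was 6, and 5 to 19 over all alternatives, and in OE against WT 3, and 2 to 20.

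The rises of GH3.3 and GH3.5 in vtc2 were positive under every alternative in which they were tested, at 0.55 to 1.06 and 0.57 to 0.73. Small uncalled log2 differences changed sign. After rescaling to TPM, they became 0.0066 for DAO1 in vtc2 against WT, -0.011 for GH3.17 in OE against vtc2, and 0.023 for GH3.9 and 0.044 for GH3.17 in vtc2 against vtc4. With 1 library left out, they ranged from -0.19 to 0.041 for DAO1 in vtc2 against WT and from -0.0035 to 0.25 for GH3.9 in OE against WT. In OE against vtc2 the ranges were -0.26 to 0.024 for GH3.6, -0.18 to 0.031 for GH3.9 and -0.014 to 0.097 for GH3.17. In OE against vtc4 they were -0.083 to 0.15 for GH3.5, -0.11 to 0.17 for GH3.6 and -0.086 to 0.10 for GH3.17. In vtc2 against vtc4 they were -0.074 to 0.012 for GH3.9, -0.12 to 0.073 for GH3.17 and -0.054 to 0.13 for DAO1. After rescaling to TPM, the median log2 difference over all genes moved as well. It went from 0.0018 to 0.081 in vtc2 against WT and from -0.0022 to -0.052 in OE against vtc2. In vtc2 against vtc4 the median went from -0.00091 to 0.067. The cause of the changes of sign was not tested. With 3 libraries a group and unknown depth, members under 1 FPKM could not be compared.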
